A study of Rattus norvegicus with 12 samples.

Results

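The renin angiotensin peptidases and receptors described here are 7 genes, Agt, Ace, Enpep, Anpep, Mme, Agtr1a and Atp6ap2, taken as every probe set that the array annotation gives to 1 of these symbols. They are 7 of the 14217 genes to which the annotation gives a probe set of its own, and the rule found 11 of the 31042 probe sets of the array, with 2 probe sets each for Ace, Enpep, Agtr1a and Atp6ap2 and 1 each for the other genes. The study measured kidney RNA of 12 male Zucker rats, a strain with lean and obese animals, which the labels call a diabetes model. Lean and obese rats ate ground chow alone (control diet) or the same chow with rosiglitazone, an agonist of the nuclear receptor PPAR gamma, at 3 mg/kg body weight for 12 weeks. The 4 groups, lean control, lean rosiglitazone, obese control and obese rosiglitazone, held 3 rats with 1 array each. The sources used here do not give genotype, age or the sampled region of the kidney, and all 4 groups shared the chow and the sex.

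Angiotensinogen, the product of Agt, is the precursor of angiotensin I, and angiotensin converting enzyme (Ace) turns that peptide into angiotensin II. Membrane peptidases then shorten angiotensin peptides: aminopeptidase A (Enpep) forms angiotensin III, aminopeptidase N (Anpep) forms angiotensin IV, and neprilysin (Mme) cuts angiotensin I to a vasodilator heptapeptide. Angiotensin II acts mainly through the type AT1a receptor (Agtr1a), and the product of Atp6ap2 is known as the prorenin receptor and is also an accessory part of the vacuolar proton pump. In rat kidney the brush border of the proximal tubule carries much of the peptidase protein, and Ace lies on endothelium as well.

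The promoters of Ace and Anpep are shown because these were the members that fell in obese rats on the control diet. Each window runs from 250 bases before to 50 bases after the gene's start in RefSeq (build GRCr8), Ace at chr10:91409879-91410178 on the plus strand and Anpep at chr1:143195052-143195351 on the minus strand, both written 5′ to 3′ along the gene. Capitals mark matches to the Sp1 box GGGCGG in Ace and to the HNF1 core GTTAAT in Anpep.
Ace: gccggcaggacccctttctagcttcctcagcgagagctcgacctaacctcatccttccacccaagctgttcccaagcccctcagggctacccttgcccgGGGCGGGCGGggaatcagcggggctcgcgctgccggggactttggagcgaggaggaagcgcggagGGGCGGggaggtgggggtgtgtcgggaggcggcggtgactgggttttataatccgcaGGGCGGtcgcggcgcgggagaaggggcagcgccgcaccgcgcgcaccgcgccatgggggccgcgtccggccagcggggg
Anpep: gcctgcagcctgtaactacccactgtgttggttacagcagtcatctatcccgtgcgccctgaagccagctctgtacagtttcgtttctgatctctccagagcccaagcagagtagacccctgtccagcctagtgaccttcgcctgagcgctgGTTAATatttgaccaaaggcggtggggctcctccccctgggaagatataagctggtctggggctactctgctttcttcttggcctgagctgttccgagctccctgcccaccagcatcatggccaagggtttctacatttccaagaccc
On both strands, GGGCGG matched 4 times in the Ace window, with 2 of the matches overlapping. It also matched 3 times in the Mme window and 2 times each in those of Agtr1a and Atp6ap2. At least 1 match was found in 33.1% of the 33469 RefSeq promoter windows of the same length. GTTAAT matched once in the Anpep window, in none of the other 5 member windows searched, and in 7.45% of all windows. AGGTCA, the core of nuclear receptor elements, matched once each in Agtr1a, Anpep and Mme and in 16.2% of all windows. The tandem of 2 such cores with any 1 base between them, a form that PPAR gamma is known to bind, matched in none of the 6 member windows and in 0.0538% of all windows. These are letter matches only, and no binding was measured.

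Signals are the authors' MAS5 values, linear intensities scaled so that the mean signal of each array after trimming 2% at each end lay between 500.12 and 500.15. Array medians lay between 204 and 238.6, and the ratio of 3′ to 5′ Gapdh probe sets lay between 1.07 and 1.32. Signals of the cre spike-in controls fell into 2 classes, 14654 to 15722 on 5 arrays and 10245 to 12164 on 7. The higher class held 2 of 3 lean control, 2 of 3 lean rosiglitazone, 1 of 3 obese control and 0 of 3 obese rosiglitazone arrays, so results are also given within a class where it bears on them. Proximal tubule markers (14 genes on the array) summed to 80024 or more on every array. Of the 4 adrenal cortex markers on the array, Cyp11b1 reached at most 59.2, Star 67.4 and Hsd3b1 202, and Cyp11a1 ranged from 86.5 to 339.

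Changes were tested with limma on log2(signal + 16) over the 18625 probe sets that passed a filter on low signal, about 144, and adjusted p-values are Benjamini-Hochberg values over all of them within a comparison, called under 0.05. Of the 11 member probe sets, 10 passed, all but the dimmer one of Ace. In obese against lean rats on the control diet 2 of the 10 were called, both lower (Ace and Anpep), against 4.74% of all tested probe sets called and 2.58% called lower. Over all probe sets 401 of 882 calls were higher there, and 179 of 516 after median centring. On rosiglitazone 2 were called, both lower (Agt and Anpep), against 5.0% called and 2.60% called lower. Over both diets 4 were called, all lower (Agt, Ace, Anpep and the leading probe set of Enpep), against 14.3% called and 6.62% called lower. The drug comparison called 0 of 10 in lean rats (0.00537% of all probe sets, with 893 probe sets at an unadjusted p under 0.05) and 1 of 10, Ace, higher, in obese rats (0.0698%, with 0.0483% called higher). Over both body types the drug called 0 of 10 (0.0591%), and the difference between the drug effects of the 2 body types called 0 of 10 (0%). The median log2 change of the 10 member probe sets was -0.21 on the control diet and -0.15 on rosiglitazone, beside medians of 0.03 and 0.02 over all tested probe sets. For the drug it was 0.05 in lean and -0.06 in obese rats, beside 0 over all probe sets in both.

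**Figure D1:**
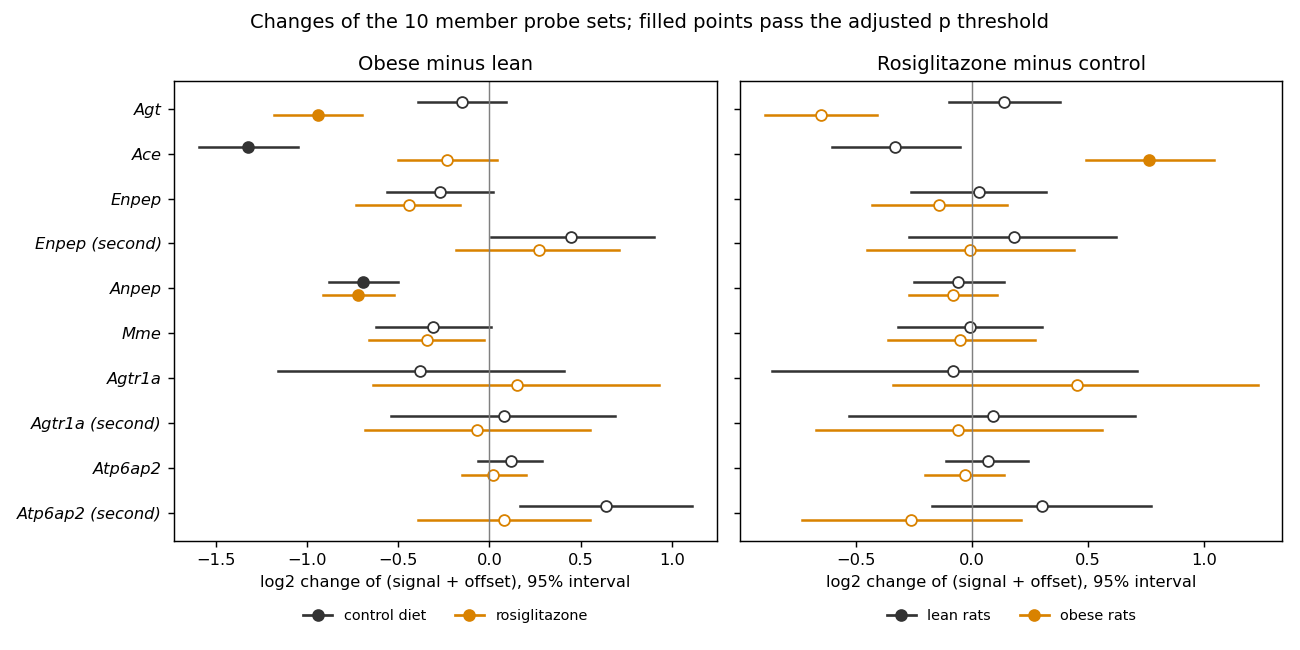
Log2 changes of signal + 16 for the 10 tested member probe sets, with 95% confidence intervals from the limma fit on 12 arrays. The left panel sets obese against lean rats on each diet and the right panel rosiglitazone against control in each body type, with filled points where the adjusted p was under 0.05. Ace stood at -1.32 for obese rats on the control diet and at 0.76 for the drug in obese rats, and Anpep stood near -0.70 on both diets.

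Agt, the substrate of the cascade, was lowest in obese rats on rosiglitazone. Its signals were 1359.9, 1119 and 1241 in lean control, 1366, 1364 and 1358 in lean rosiglitazone, 1212, 1101 and 1026 in obese control and 804, 642 and 670.2 in obese rosiglitazone rats. All 3 treated obese rats lay below the other 9, whereas the lean and obese groups on the control diet overlapped. Treated obese and treated lean rats did not overlap in 23.3% of all tested probe sets. The share with 1 group apart from the other 9 rats was not counted. Between body types Agt fell 1.92-fold on rosiglitazone, by 0.94 on the log2 scale (SE 0.11, 95% interval -1.18 to -0.70, limma adjusted p = 0.000372). On the control diet the difference was -0.15 (SE 0.11, limma adjusted p = 0.507). Over both diets Agt fell by 0.55 (SE 0.08, limma adjusted p = 0.000493).

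Within obese rats the drug group mean of Agt was 705 ± 86.5 against 1113 ± 93.5 (SD, n = 3 each) on the control diet, a log2 change of -0.65 (SE 0.11) that missed the threshold with a limma adjusted p of 0.0538. The groups did not overlap, which also held for 11.9% of all tested probe sets. The adjusted p ranged from 0.0387 to 0.301 over 22 other settings, 3 of which called it. In lean rats the means were 1239.8 ± 121 on control and 1363 ± 4.21 on rosiglitazone (SD, n = 3 each), a change of 0.14 (limma adjusted p = 0.981). The difference between the 2 drug effects was -0.79 (SE 0.16, unadjusted p = 0.000192), and limma's adjusted p of 0.398 did not pass.

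Marker lists of other cells were set beside Agt. Fat is a known source of angiotensinogen, and the summed signal of 9 fat cell markers ranged from 5104 to 7192 in lean control, 12154 to 24371 in lean rosiglitazone, 2583 to 3190.5 in obese control and 5692 to 6995 in obese rosiglitazone rats. Of 8 tested fat cell markers 5 were called lower in obese than in lean rats on rosiglitazone, beside 2.60% of all tested probe sets. All 8 had a positive drug change in obese rats, 1 of them called (Fabp4), while Agt was lower there. The brown fat marker Ucp1 ranged from 4.11, under the filter signal of about 144, to 5435. The 14 proximal tubule markers summed to between 101454 and 120163 in lean rosiglitazone and between 80024 and 81876 in obese rosiglitazone rats. Their part in the Agt result was not tested. In whole tissue, fewer cells of a type and less RNA per cell cannot be told apart.

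Ace, the enzyme that forms angiotensin II, was lower in obese than in lean rats on the control diet and higher in obese rats that ate rosiglitazone. Its leading probe set read 648, 572 and 594 in lean control, 479, 502 and 456 in lean rosiglitazone, 251, 226 and 221 in obese control and 441, 361 and 420 in obese rosiglitazone rats. No 2 groups overlapped, and the order from highest to lowest was lean control, lean rosiglitazone, obese rosiglitazone, obese control. Lean and obese groups did not overlap in 25.5% of all tested probe sets on the control diet and in 23.3% on rosiglitazone. The share in which all 4 groups lay apart was not counted. On the control diet Ace fell 2.5-fold in obese rats, by 1.32 on the log2 scale (SE 0.13, 95% interval -1.59 to -1.05, limma adjusted p = 5.9e-05). It was called in 22 of 23 other settings, the exception being the arrays of the higher spike-in class alone. The change was -1.23 in that class, which held 1 obese control array. In the lower class, which held 1 lean control array, it was -1.35.

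With rosiglitazone the distance between body types was -0.23 (SE 0.13, 95% interval -0.50 to 0.04, limma adjusted p = 0.347). In obese rats Ace rose 1.7-fold on the drug, from 233 ± 15.7 to 407 ± 41.2 (SD, n = 3 each), a log2 change of 0.76 (SE 0.13, 95% interval 0.49 to 1.04, limma adjusted p = 0.0486). The obese control rats enter this comparison and the one between body types on the control diet. The call lay at the threshold: it was lost when any array but lean rosiglitazone replicate 2 was left out, with changes of 0.71 to 0.85, and adjusted p ranged from 0.0302 to 0.218 over 22 other settings, 4 of which kept it. Within the lower spike-in class the change was 0.82 (limma adjusted p = 0.194). In lean rats the drug groups stood the other way, 605 ± 39 on control and 479 ± 22.8 on rosiglitazone (SD, n = 3 each), a change of -0.33 (SE 0.13, unadjusted p = 0.0223; groups not overlapping, as in 8.54% of all tested probe sets) that did not pass (limma adjusted p = 0.981).

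The drug effect on Ace in obese rats minus that in lean rats was 1.09 (SE 0.18, 95% interval 0.71 to 1.48, unadjusted p = 2.78e-05). Limma's adjusted p over all probe sets was 0.173, and in that comparison 0 probe sets were called while 802 had an unadjusted p under 0.05. Ace was the 1 member whose treated and control rats did not overlap in either body type and stood in opposite order, below the controls in lean and above them in obese animals. Opposite order of this kind, counted in both orientations, was found in 0.424% of all tested probe sets. Over both body types the drug change was 0.22 (limma adjusted p = 0.921).

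The dimmer Ace probe set lay under the filter and was not tested. It read 41.4, 126 and 51.7 in lean control, 52.8, 64.6 and 79.7 in lean rosiglitazone, 16.1, 22.2 and 39 in obese control and 34.2, 86.4 and 21.2 in obese rosiglitazone rats. Every obese control value lay below every lean control value, as with the leading probe set, whereas obese control and obese rosiglitazone overlapped.

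Endothelium markers were set beside Ace, since endothelium also carries the enzyme. The sum over 10 of them ranged from 7172 to 11936 in obese control and from 11700.3 to 13282 in obese rosiglitazone rats, with 9399.6 to 10184 and 8835 to 10069 in the lean groups. The low end in obese control rats, 7172, came from the 1 array of that group in the higher spike-in class. Its lower-class arrays summed to 11936 and 10140, and the former lay within the range of the treated obese rats, all of the lower class. The changes of these markers given next are not adjusted for the class. On the drug in obese rats 9 of the 10 had a positive change and 0 were called, with a median of 0.38, and Vwf stood at 0.05 and Pecam1 at 0.47. On the control diet, where Ace differed most, the median of the same markers between body types was -0.04 with 0 of 10 called. The 14 proximal tubule markers had a median drug change of -0.10 in obese rats, 3 of 14 positive and 0 called. The part of either cell type in the Ace changes was not tested.

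**Figure D2:**
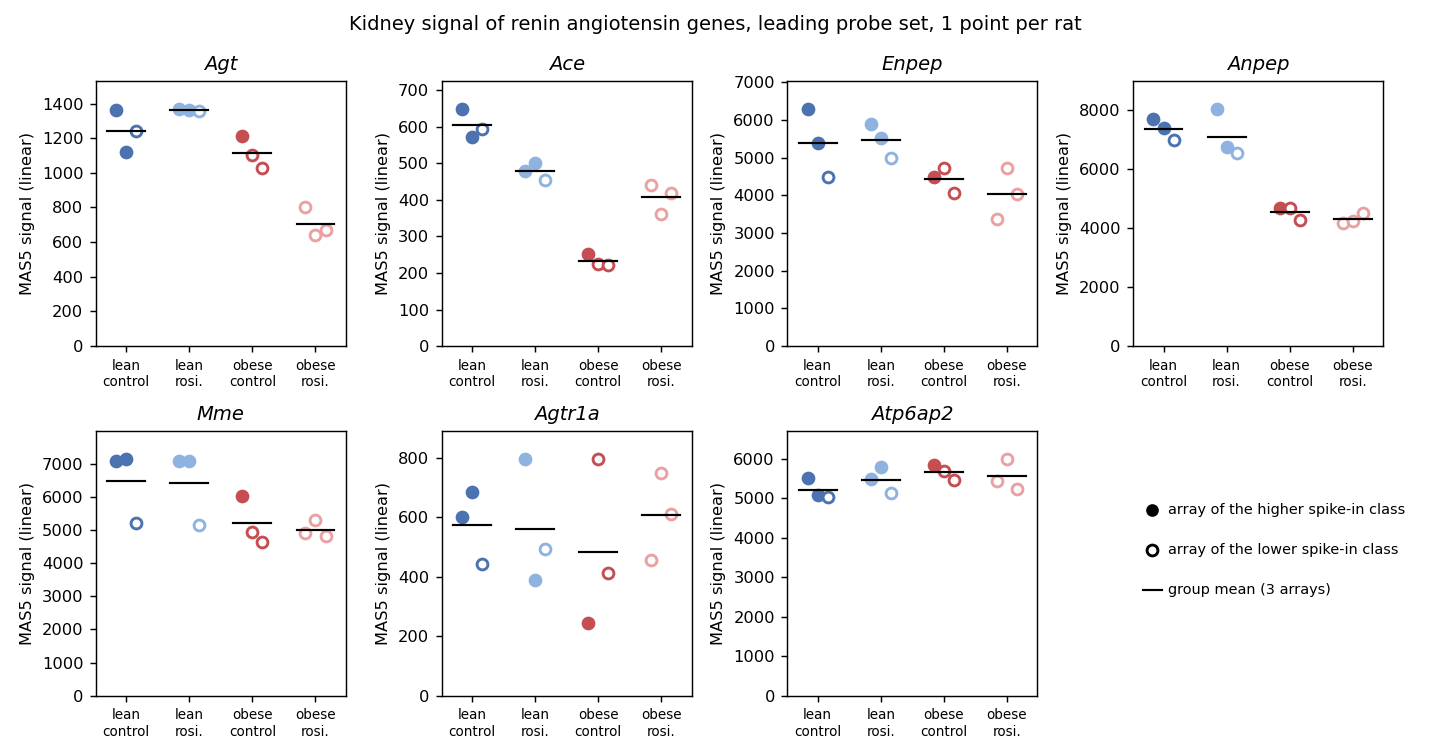
Linear MAS5 signal of the leading probe set of each of the 7 genes on the 12 arrays, with points for rats and bars for group means. Ace lay at 221 to 251 in obese control against 572 to 648 in lean control rats, and Agt lay at 642 to 804 in obese rosiglitazone rats, below all other groups.

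Anpep, aminopeptidase N of the brush border, was lower in obese rats on both diets. The signals were 7696, 7386 and 6980.1 in lean control, 8021, 6741 and 6535 in lean rosiglitazone, 4680.3, 4683 and 4260.4 in obese control and 4183, 4226 and 4498 in obese rosiglitazone rats. Every obese rat lay below every lean rat. Between body types Anpep fell 1.62-fold on the control diet (by 0.69, SE 0.09, limma adjusted p = 0.000589) and 1.64-fold on rosiglitazone (by 0.72, SE 0.09, limma adjusted p = 0.000469). Over both diets the fall was 0.70 (SE 0.06, limma adjusted p = 8.58e-06). In 9.95% of all tested probe sets lean and obese groups did not overlap within either diet, in the same direction on both. That share counts both directions and does not require every obese rat to lie apart from every lean rat across diets. The drug change was -0.06 in lean rats (95% interval -0.25 to 0.14, limma adjusted p = 0.997) and -0.08 in obese rats (95% interval -0.27 to 0.11, limma adjusted p = 0.999). The control diet call was lost only within the higher spike-in class, among 23 other settings (-0.69, with 1 obese control array).

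Most other brush border enzymes were lower in obese rats as well. Of 8 tested, 5 were called lower on the control diet, 3 on rosiglitazone and 6 in the mean of both diets, with medians of -0.46, -0.36 and -0.45. Over all tested probe sets 2.58%, 2.60% and 6.62% were called lower in these comparisons, with medians of 0.03, 0.02 and 0.03. In each of these comparisons 1 of the 8 had a positive change, and 0 were called higher. After quantile normalization 5, 3 and 5 were called lower, and after median centring 2, 1 and 5, with medians of -0.30, -0.24 and -0.30 after the former. The meprin subunit Mep1b fell by 0.69 on the control diet (SE 0.14, limma adjusted p = 0.0106), dipeptidyl peptidase Dpp4 by 0.47 (SE 0.11, limma adjusted p = 0.0317) and alkaline phosphatase Alpl by 0.47 (SE 0.09, limma adjusted p = 0.00779). Xpnpep2, a membrane aminopeptidase P that removes residues ahead of proline, stood at -0.16 on both diets and was not called. Among the 14 proximal tubule markers 3 were called lower on the control diet, 7 on rosiglitazone and 10 in the mean of both diets, with medians of -0.31, -0.43 and -0.39. After median centring 1, 2 and 9 were called lower, and after quantile normalization 2, 5 and 8, with medians of -0.19, -0.24 and -0.21 after the latter. Their summed signal was 97923 to 120933 in lean control and 84061 to 94539 in obese control rats, so the 2 groups did not overlap, and its part in the Anpep result was not tested. Sums of both lists also followed the spike-in class. In lean control rats the higher class had proximal tubule sums of 120933 and 113256, against 97923 in the lower. Sums of 11 brush border enzymes were 59343 and 55274 against 45708 there, and 57239 and 58191 against 46967 in lean rosiglitazone rats. In lower-class obese rats the brush border sum was 35986 to 41790. The counts and medians above are not adjusted for the class.

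**Figure D3:**
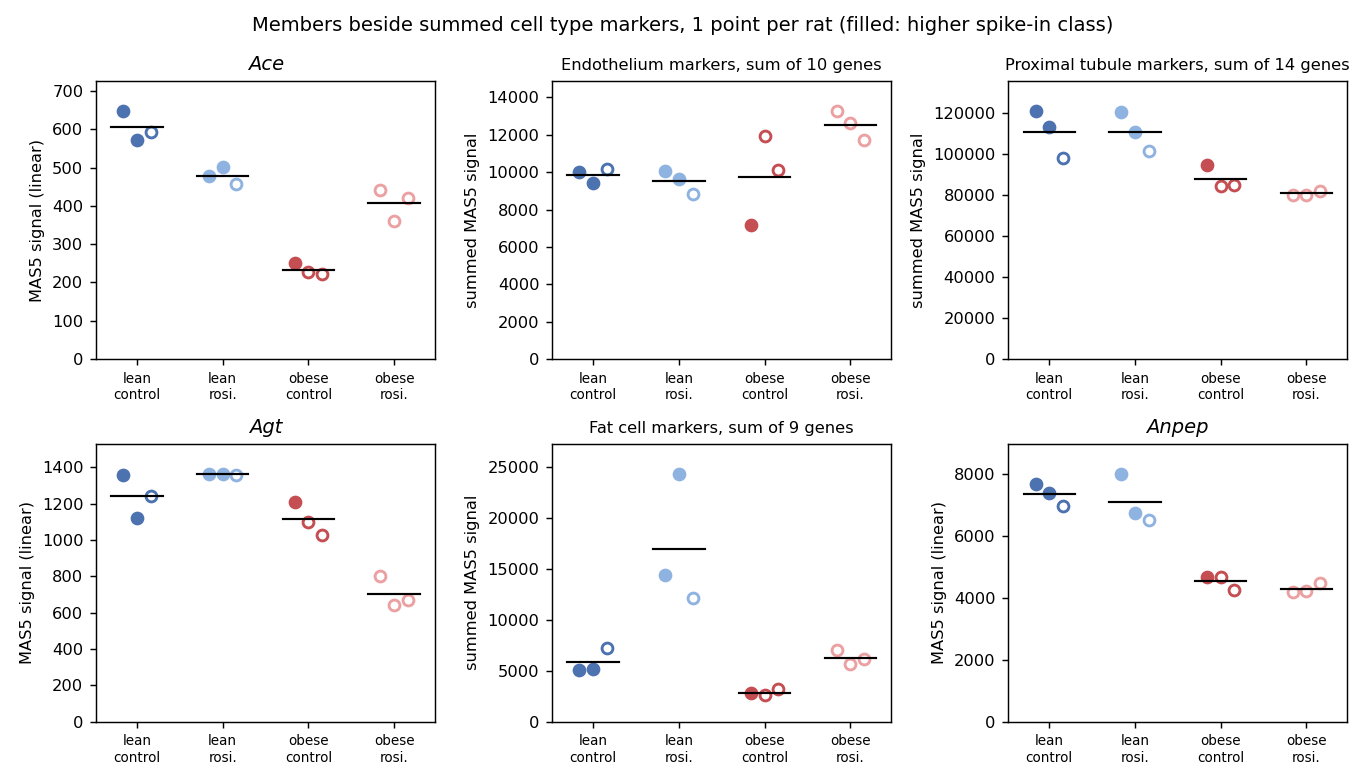
Signals of members and summed linear signals of marker lists on each of the 12 arrays, by group. The proximal tubule sum lay at 97923 or more in lean and at 94539 or less in obese rats, and the endothelium sum was 11700.3 to 13282 in obese rosiglitazone rats.

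Enpep, aminopeptidase A, gave different pictures on its 2 probe sets. The leading one read 6277, 5391 and 4493 in lean control, 5889, 5519 and 4982 in lean rosiglitazone, 4491, 4735 and 4054 in obese control and 3363, 4721 and 4039 in obese rosiglitazone rats. Obese and lean rats overlapped on the control diet and not on rosiglitazone, where 4 member probe sets and 23.3% of all tested probe sets did not overlap. The change was -0.27 on the control diet (SE 0.13, limma adjusted p = 0.296), -0.44 on rosiglitazone (SE 0.13, limma adjusted p = 0.074) and a called fall of 0.36 over both diets (SE 0.09, limma adjusted p = 0.0217). That call held in 13 of 21 other settings. It was lost with the class as a term of the fit (-0.26, limma adjusted p = 0.111) and after quantile normalization (-0.25, limma adjusted p = 0.061). The lower class alone, with 1 array in each lean group, also lost it (-0.18). Median centring (-0.38, limma adjusted p = 0.0501) and a fit with no trend or robust setting (-0.36, limma adjusted p = 0.0523) also lost it. It was also lost without lean control replicate 1 (adjusted p = 0.055), lean rosiglitazone replicate 1 (adjusted p = 0.0525) or obese control replicate 3 (adjusted p = 0.0589).

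The second Enpep probe set read 212, 176 and 210.4 in lean control, 262, 157 and 283 in lean rosiglitazone, 247, 334 and 259.7 in obese control and 263, 286 and 280.4 in obese rosiglitazone rats. All obese control rats lay above all lean control rats, opposite to the direction of the leading probe set. Its change over both diets was 0.36 (SE 0.15, limma adjusted p = 0.122), so the fall of Enpep rests on 1 probe set. The drug change of the leading probe set was 0.03 in lean and -0.14 in obese rats, neither called (limma adjusted p = 0.999 for both).

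Mme, neprilysin, had signals of 7088, 7134 and 5194 in lean control, 7086, 7068 and 5133 in lean rosiglitazone, 6024, 4945 and 4639 in obese control and 4920.2, 5293 and 4823 in obese rosiglitazone rats. Both lean groups held 2 high rats and 1 low rat, and the low rat of each was the one on an array of the lower spike-in class. The higher minus lower class difference inside a group was 0.45 in lean control, 0.46 in lean rosiglitazone and 0.33 in obese control rats, on the log2 scale. Between body types Mme changed by -0.31 on the control diet (limma adjusted p = 0.276), -0.34 on rosiglitazone (limma adjusted p = 0.208) and -0.33 over both diets (SE 0.10, limma adjusted p = 0.0501), none of which passed. The change over both diets was called in 5 of 21 other settings, among them an offset of 64 (-0.32, limma adjusted p = 0.0488) and the fits without lean control replicate 3 (-0.40, adjusted p = 0.0123), lean rosiglitazone replicate 3 (-0.40, adjusted p = 0.0127) or obese control replicate 1 (-0.38, adjusted p = 0.0302). Within the lower class, which held 1 array of each lean group, the value over both diets was -0.08. With the class as a covariate it was -0.12 (limma adjusted p = 0.167). Podocytes also carry neprilysin. Over both diets 1432 of all 18625 tested probe sets were called higher. The 7 tested podocyte markers had a median of 0.47 there, with 1 called higher (Wt1). Their summed signal also followed the class: it was 3911 and 3598 in the higher-class and 7028 in the lower-class lean control rats, 5727 and 4823 against 6497 in lean rosiglitazone rats, and 4154 in the higher-class obese control rat. Within the lower class the sums of lean (6497 to 7028) and obese rats (5919.5 to 8591) overlapped. The part of podocytes in the Mme values was not tested. The drug change of Mme was -0.01 in lean and -0.05 in obese rats.

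**Figure D4:**
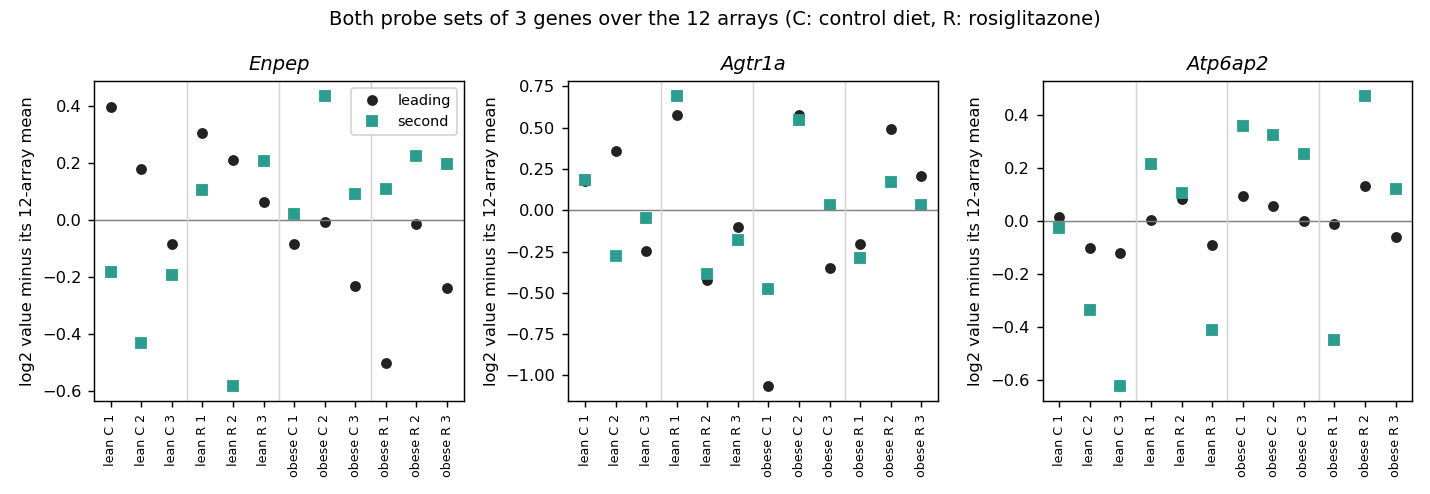
Centred log2 values of both probe sets of Enpep, Agtr1a and Atp6ap2 on each of the 12 arrays, each set minus its own mean over the arrays. The probe sets of Agtr1a sat on the same side of zero on most arrays, whereas in Enpep the leading set was higher and the second lower on lean control arrays 1 and 2.

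Agtr1a, the AT1a receptor, spread widely within groups. The leading probe set read 600, 684 and 442 in lean control, 796, 391 and 492 in lean rosiglitazone, 244, 795 and 412 in obese control and 456, 751 and 613 in obese rosiglitazone rats. The second read 354, 253 and 299.9 in lean control, 511, 233 and 271 in lean rosiglitazone, 218, 459 and 317 in obese control and 251, 351 and 318 in obese rosiglitazone rats. On both probe sets obese control replicate 1 was low and replicate 2 high, and all groups overlapped. The leading probe set changed by -0.38 between body types on the control diet (95% interval -1.16 to 0.41, limma adjusted p = 0.635) and by 0.45 with the drug in obese rats (95% interval -0.34 to 1.23, limma adjusted p = 0.999). Over the 7 comparisons the smallest unadjusted p was 0.242 for the leading and 0.723 for the second probe set, and the intervals leave room for changes of more than 1 log2 unit.

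Atp6ap2, the prorenin receptor, differed little between groups on its leading probe set, with 5519.8, 5089 and 5021 in lean control, 5478, 5779.5 and 5132 in lean rosiglitazone, 5833, 5672 and 5456 in obese control and 5421, 5985 and 5239 in obese rosiglitazone rats. The groups overlapped. The body type change was 0.12 on the control diet (SE 0.08, limma adjusted p = 0.472), 0.02 on rosiglitazone (limma adjusted p = 0.917) and 0.07 over both diets (95% interval -0.05 to 0.19, limma adjusted p = 0.468). Quantile normalization called it, at 0.23 on the control diet (limma adjusted p = 0.0497) and 0.20 over both (limma adjusted p = 0.00964). The drug change was 0.07 in lean and -0.03 in obese rats.

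The second probe set of Atp6ap2 read 1363, 1097 and 895 in lean control, 1614, 1495 and 1038 in lean rosiglitazone, 1781, 1740.1 and 1653 in obese control and 1012, 1931 and 1509.7 in obese rosiglitazone rats. On the control diet all obese rats lay above all lean rats, as did 4 member probe sets in 1 direction or the other and 25.5% of all tested probe sets. The change was 0.64 (SE 0.22, limma adjusted p = 0.123). It was called with the class as a term of the fit (0.76, limma adjusted p = 0.0415) and in a fit on those 6 arrays alone (limma adjusted p = 0.0387). Of 19 tested vacuolar proton pump subunits, the complex to which Atp6ap2 belongs, 1 was called lower on each diet (Atp6v0d1, by 0.32 and 0.37). Over both diets 2 were called lower (Atp6v0d1 and Atp6v0c) and 1 higher (Atp6v1g3, 0.33), with a median of 0.05. After quantile normalization 5 were called higher and 1 lower over both diets. Without it, 2.58%, 2.60% and 6.62% of all tested probe sets were called lower on the control diet, on rosiglitazone and over both.

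Of 21 other renin angiotensin genes listed, 16 had a probe set and 12 were tested. Between body types 5 of the 12 were called in at least 1 comparison, a share not counted over all probe sets. The comparison over both diets called 3 of the 12 higher and 2 lower. Beside them, 14.3% of all tested probe sets were called there and 6.62% called lower. Prep, prolyl endopeptidase, which can cleave angiotensin peptides, fell by 0.85 on the control diet (SE 0.16, limma adjusted p = 0.00769) and by 1.28 on rosiglitazone (SE 0.16, limma adjusted p = 0.000434). Its mean signals were 4633 ± 837 in lean control, 4573 ± 712 in lean rosiglitazone, 2542 ± 233 in obese control and 1875 ± 328 in obese rosiglitazone rats (SD, n = 3 each). Agtrap, a protein that binds the AT1 receptor and lowers its surface level, fell by 0.35 on the control diet (SE 0.08, limma adjusted p = 0.0223) and by 0.42 on rosiglitazone (SE 0.08, limma adjusted p = 0.00858). After median centring the control diet call of Agtrap was lost. Its means were 2072 ± 68.8 and 2093 ± 34.6 in the lean groups and 1622 ± 13.3 and 1567 ± 86.5 in the obese groups (control, then rosiglitazone, SD, n = 3 each).

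Downstream of angiotensin II, the mineralocorticoid receptor gene Nr3c2 rose by 0.55 in obese rats on the control diet (SE 0.11, limma adjusted p = 0.0127) and stood at 0.37 on rosiglitazone (limma adjusted p = 0.0694). Its means were 895 ± 26.1 in lean control and 1318 ± 115 in obese control rats (SD, n = 3 each). Hsd11b2, which shields that receptor from glucocorticoids, rose by 0.36 over both diets (SE 0.10, limma adjusted p = 0.0251), and cathepsin A (Ctsa), a carboxypeptidase, rose by 0.33 (SE 0.10, limma adjusted p = 0.0374). After median centring the call of Ctsa was lost. Collecting duct markers, a segment where Nr3c2 and Hsd11b2 are known to act, included 4 of 7 called higher over both diets, with a median of 0.33. Of all 18625 tested probe sets 1432 were called higher there. The part of these markers in the Nr3c2 and Hsd11b2 results was not tested. The drug called 0 of the 12 in either body type, and of 6 tested kinin and natriuretic peptide genes 0 were called in any of the 7 comparisons. The list medians were 0.10 for the control diet, 0.12 for rosiglitazone and 0.11 for both, beside 0.03, 0.02 and 0.03 over all probe sets.

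**Figure D5:**
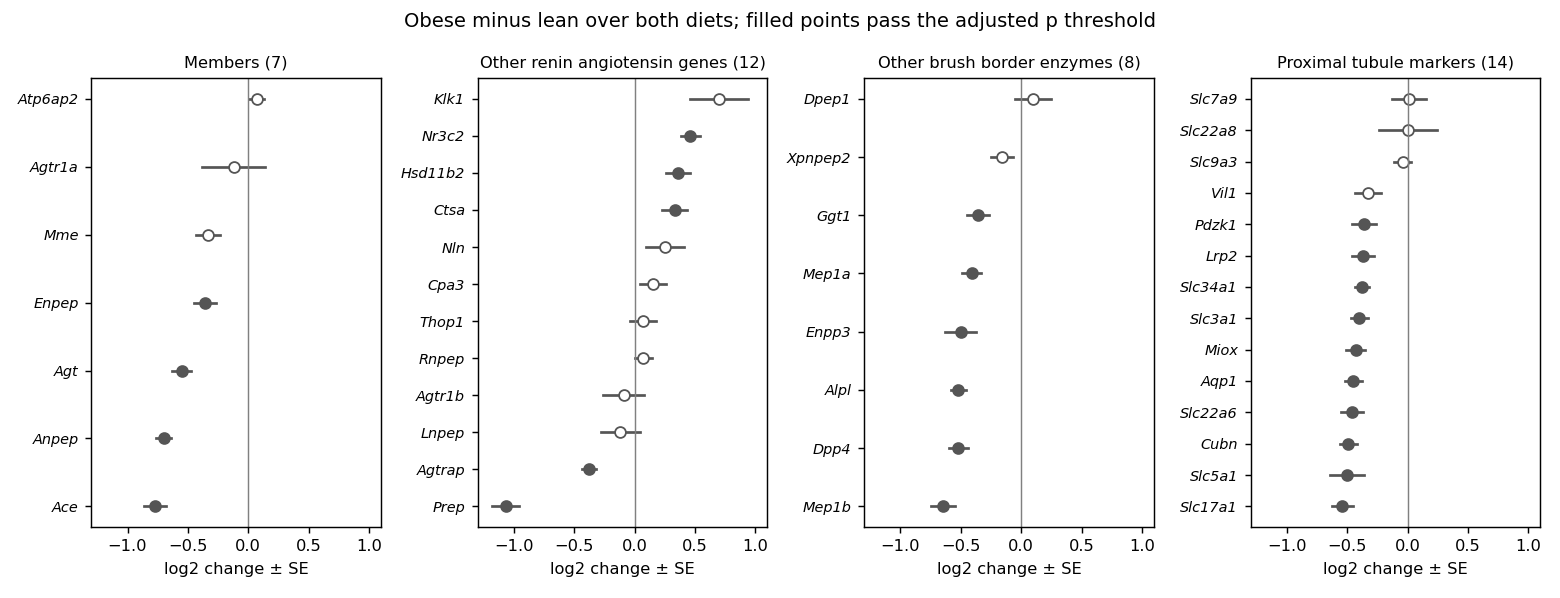
Log2 change between obese and lean rats over both diets, with standard errors, for the genes of the listed groups, filled where the limma adjusted p was under 0.05. Prep (-1.07) lay lowest among the other renin angiotensin genes. Of the 8 other brush border enzymes 6 were called lower, beside 6.62% of all tested probe sets.

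The genes whose centred log2 values over the 12 arrays lay closest to each called member were found by the mean absolute difference. For Ace these were Gcm1, a transcription factor (0.115), the protocadherin Pcdh9 (0.142), the RNA polymerase III subunit Polr3b (0.166) and Rnls, renalase (0.178). Mean signals of Rnls were 2695, 2428, 1487 and 1987 in lean control, lean rosiglitazone, obese control and obese rosiglitazone rats, and those of Gcm1 were 577, 495, 269 and 376. For Anpep they were Crym, a thyroid hormone binding protein (0.051), the metal transporter Slc39a8 (0.0653), Amn, a partner of cubilin in endocytosis (0.0759), and the glutamate transporter Slc1a1 (0.0799). For Agt they were Aplp1 (0.114), the fatty acid oxidation enzyme Eci2 (0.142), Rnf125 (0.142) and Ttyh2 (0.146), and Eci2 had means of 2873, 3027, 2585 and 2023 in the same order of groups. For the leading probe set of Enpep they were Dmxl2 (0.0652), Rassf8 (0.0741), the cytochrome oxidase assembly factor Cox16 (0.0751) and the acetyl-CoA transporter Slc33a1 (0.0755). The values share arrays and scaling, so the closeness is a description.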

How the data were processed

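Kidney total RNA of 12 rats, 1 array each in 4 groups of 3, was labelled with biotin, per the labels' protocols. The deposited table holds linear signal intensity per probe set, made by the authors with MAS5, per the submitters' processing notes. Its version is not given there, and scaling was read from the values. The 57 control probe sets were left out, an offset of 16 was added, log2 was taken, and probe sets with a mean at or above the 40th percentile (7.32) were kept. One limma 3.58.1 fit (R 4.3.3) with 4 group means, 8 residual degrees of freedom and the trend and robust settings gave 7 comparisons, each adjusted by Benjamini-Hochberg. Where a gene had 2 probe sets, the one of higher mean signal leads. All member probe sets are named, other renin angiotensin genes where called, and up to 4 genes nearest each called member. The members and lists were chosen with earlier results of these data known. Fold changes are on the signal + 16 scale, which understates changes of dim probe sets. Replicates are separate rats by the design text, and their number limits the precision. The tests were checked on simulated data, and 23 other settings were tried. All 7 symbols matched RefSeq genes, and promoter windows (6 of 7 members, not Agt) came from RefSeq, build GRCr8.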

Additional observations from a re-analysis of the deposited data

Results flagged for a closer look

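The drug effect on Ace stood apart between body types: it was 1.09 higher on the log2 scale in obese (0.76) than in lean rats (-0.33). It is listed because every treated lean rat lay below every lean control rat and every treated obese rat lay above every obese control rat. The test of the difference gave an unadjusted p of 2.78e-05 and a limma adjusted p of 0.173 over all probe sets, so it did not pass.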

How the results depend on the processing

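The 23 other settings covered offsets, filtering, scaling, the spike-in class, leaving out single arrays, the block and smaller fits. Of the log2 changes recomputed, 1009 kept their direction and side of the threshold, 28 lost a call, 15 gained one and 31 changed sign; all that changed sign were uncalled. The count of members called between body types on the control diet (2) was 0 within the higher spike-in class, where fewer arrays entered. The count for the drug in obese rats (1) was 0 with offset 64, no filter, median centring, no trend or robust setting, within the lower class or on the compared arrays alone, and 2 after quantile normalization; leaving out single arrays gave 0 to 1. The cause was not tested. Over all probe sets, median centring called 516 on the control diet (882 before) and 493 on rosiglitazone (932 before), and over all settings the lowest and highest counts were 52 and 1003, and 474 and 1033. Correlations between the deviations of same-numbered samples ran from -0.18 to 0.18, with 4 of 18 over 0.1. Those of lean control with lean rosiglitazone rats were 0.1, 0.13 and 0.18. In both lean groups replicates 1 and 2 were of the higher spike-in class and replicate 3 of the lower. Replicate number and class cannot be told apart there. With the replicate block the drug in obese rats called 1 member, Agt (adjusted p = 0.0488) in place of Ace (adjusted p = 0.0735). The block also called Mme over both diets (-0.33, adjusted p = 0.0102), and no other call of a member changed with it.

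Signs turned as follows, with ranges over single arrays left out. Enpep leading, drug in lean: 0 after median centring, -0.03 within the higher class, -0.09 to 0.15. Enpep second: -0.03 within the lower class for body type on rosiglitazone, and 0.01 after median centring for the drug in obese, -0.09 to 0.12. Anpep, drug in lean: -0.15 to 0. Mme: drug in lean -0.16 to 0.14, drug in obese 0.09 with the class as covariate, 0.06 within the lower class, -0.12 to 0.06. Agtr1a leading, within the lower class: 0.36 on the control diet (-0.80 to 0.02), 0.31 over both (-0.33 to 0.08), 0.15 for the drug in lean (-0.36 to 0.14), and -0.07 to 0.42 on rosiglitazone. Atp6ap2 leading: -0.03 to 0.06 on rosiglitazone, and 0 for the drug in obese with the class as covariate, -0.08 to 0.01. Atp6ap2 second on rosiglitazone: -0.13 to 0.33.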
